A study of Homo sapiens with 6 samples.

Results

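Luminal and stem cell genes of the mammary gland were described in SUM159, a basal-like line of human breast cancer. The genes were taken by symbol from a list of 48 luminal lineage, hormone response, progenitor and stem cell genes, which was drawn up with earlier results of these arrays known and applies no threshold to their values. Of these, 39 had a named row in the table and each had exactly 1 row. ERBB2, ALDH1A1, ALDH1A3, PROCR, ABCG2, BMI1, HES1, ID1 and ID4 were not analysed here. The control cells were SUM159 cells carrying a scrambled short hairpin RNA (shRNA), and in the spinophilin-silenced cells the shRNA was directed against spinophilin, a scaffold protein of the cell membrane and the actin cytoskeleton. Both populations had been infected with lentiviral particles, selected with puromycin and maintained in medium with insulin and hydrocortisone. A single shRNA sequence was used, so the effects of that sequence and of the loss of its target cannot be told apart. Each group had 3 arrays (Affymetrix Human Gene 2.0 ST), labelled 1, 2 and 2d, and no source used here explains the letter. The study called them independent biological replicates, and the p-values measure the spread between these samples only. The study reported reduced spinophilin protein in its silenced SUM159 cells by Western blot. The transcript of spinophilin itself was not analysed here, so the degree of silencing on the arrays is unknown.

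The mammary duct has an inner layer of luminal cells, an outer layer of basal, contractile myoepithelial cells, and stem and progenitor cells that renew both. Mature luminal cells are set by transcription factors such as GATA3, FOXA1 and the oestrogen receptor ESR1, while alveolar progenitors use KIT, ELF5 and the prolactin receptor. Stem-like breast cancer cells are often sorted by surface proteins such as CD44, and their maintenance has been tied to Notch signalling and to transcription factors such as SOX2, SOX9 and KLF4. The study read self-renewal with a sphere assay, and the comparison here asks which of these genes the line expressed and whether their transcripts differed after spinophilin silencing.

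The values are log2 expression values made by robust multi-chip averaging (RMA), in which a difference of 0.585 equals 1.5-fold. RMA gives no call of signal over background and probes differ in how strongly they bind, so the level of a gene was only placed in a band. The bands were set by the lower quartile (3.87), the median (5.21) and the upper quartile (6.52) of the arrays, averaged over the 6 arrays. Array medians lay between 5.19 and 5.23. Over all 53617 transcript clusters, the probe groups of the array, the difference between 2 arrays had an SD of 0.267 to 0.306 within a group and of 0.290 to 0.328 between the groups.

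In SUM159 cells these genes ranged from among the dimmest to among the brightest transcripts of the arrays, and for most of them the difference after spinophilin silencing could be bounded within 1.5-fold. The surface peptidase gene MME (neprilysin, CD10) was the one gene that met the study's own criteria, at 1.87-fold (95% interval 1.34 to 2.61) higher in the spinophilin-silenced cells. In limma over all transcript clusters with Benjamini-Hochberg adjustment, 0 of the 39 genes were higher and 0 were lower at an adjusted p under 0.05, where 0.205% of all transcript clusters passed. At an unadjusted p under 0.05, 1 of 39 passed in limma, against 7.39% of all transcript clusters. In the unmoderated test 2 of 39 did (PGR and MME), but the share over all transcript clusters was not counted for that test. After adjustment, 0 of all transcript clusters passed in the unmoderated test. The study's criteria ask for 1.5-fold or more together with an unadjusted p under 0.05, which the study took from an analysis of variance. Applied here to the p from limma, the criteria were met by 1 of 39 genes and by 1.33% of all transcript clusters. The median difference of the 39 genes, silenced minus control, was -0.03 on the log2 scale, with 17 genes above 0 and 22 below, and the median over all transcript clusters was -0.003. The 95% interval lay within 1.5-fold in either direction for 35 of the 39 genes (89.7%), compared with 83.5% of all transcript clusters and 92.5% of the 14884 genes with a symbol. The exceptions were MME, CD24, NANOG and ERBB4. The groups did not overlap for 2 of the 39 genes, MME with higher and PGR with lower values in silenced cells, against 12.7% of all transcript clusters.

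**Figure D1:**
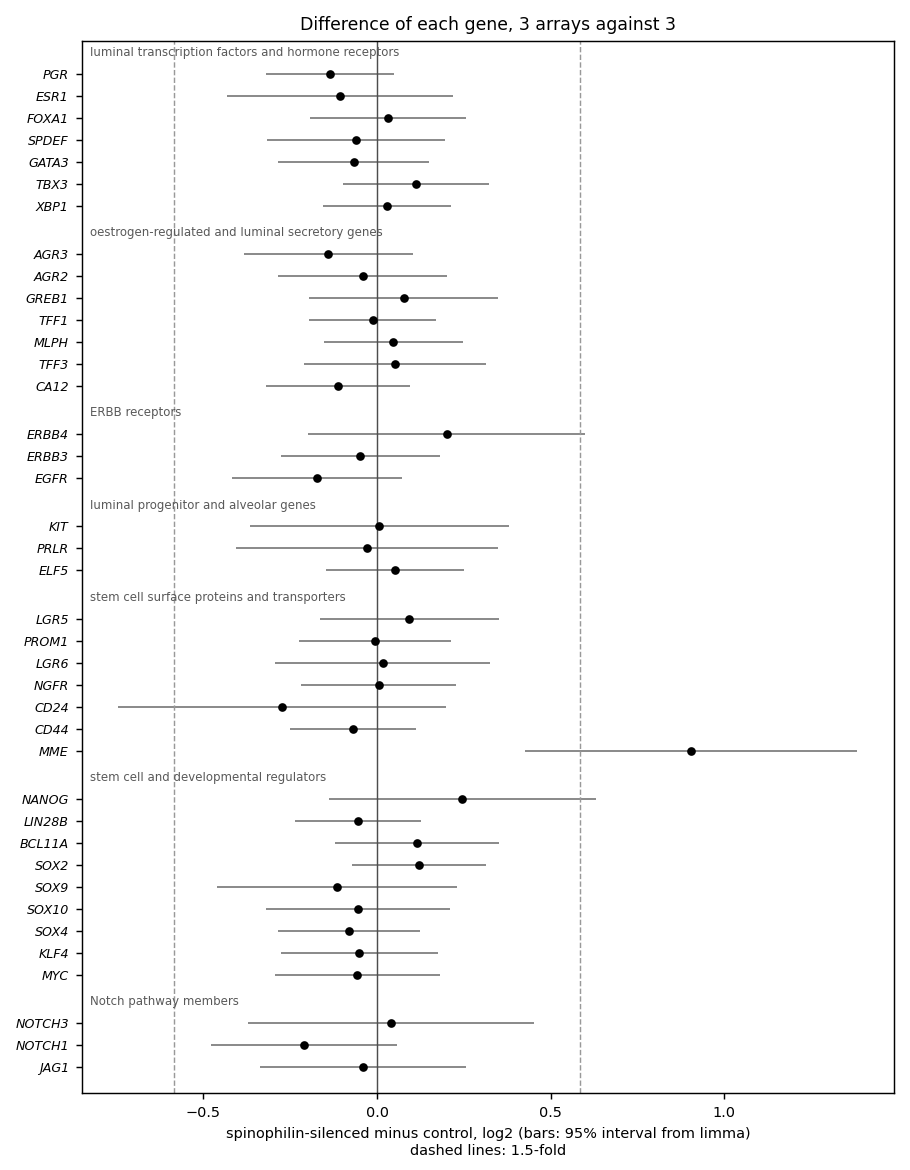
Difference of each of the 39 genes, spinophilin-silenced minus control, on the log2 scale, with its 95% interval from limma (3 arrays against 3). The dashed lines mark 1.5-fold; MME at 0.90 is the only gene whose interval excludes 0, and the intervals of MME, CD24, NANOG and ERBB4 reach past a dashed line.

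In their levels, 7 of the 39 genes lay below the lower quartile of the arrays, 11 between the lower quartile and the median, 11 between the median and the upper quartile, and 10 above the upper quartile. The last share, 25.6%, compares with 36.1% of all genes with a symbol. Hormone receptors and alveolar progenitor genes lay in the lower bands. CD44, MME, EGFR and the oestrogen-regulated gene CA12 were among those in the highest band. The pooled SD of replicate arrays ranged from 0.047 to 0.310 over the 39 genes, with a median of 0.120, and was highest for MME. Of the differences between groups, 25 were under 0.1 and 5 were over 0.2 in size on the log2 scale (MME, CD24, NANOG, NOTCH1 and ERBB4).

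**Figure D2:**
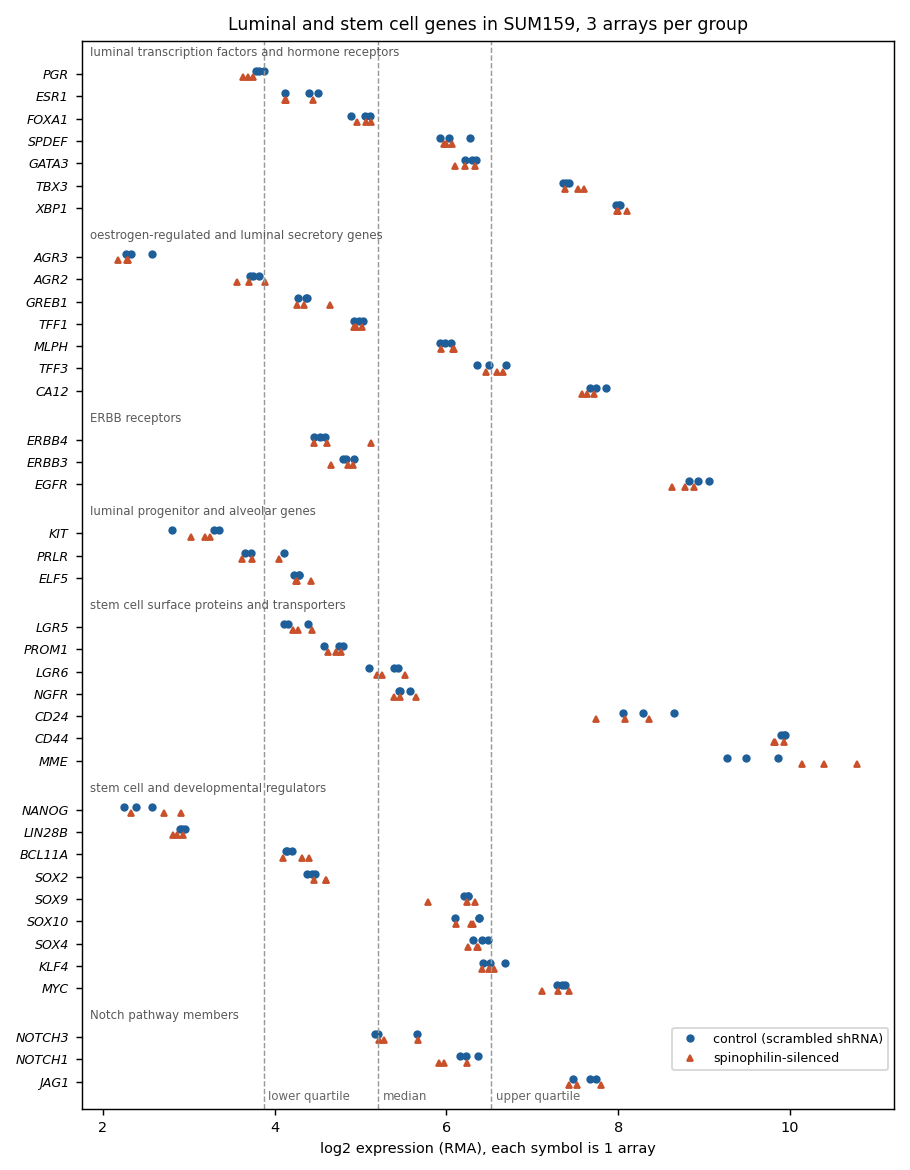
Level of each of the 39 genes on each array (log2 expression, RMA), grouped by role; circles are control arrays, triangles are spinophilin-silenced arrays, and dashed lines mark the quartiles of the arrays. Levels run from 2.32 for AGR3 to 9.99 for MME (mean of 6 arrays), and the circles and triangles of nearly every gene intermingle.

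Among the luminal transcription factors and hormone receptors, PGR, which encodes the progesterone receptor, lay below the lower quartile with a mean of 3.76, and the oestrogen receptor gene ESR1 lay just above it at 4.28. FOXA1, the pioneer factor that opens chromatin for the oestrogen receptor, lay between the lower quartile and the median at 5.03. GATA3, the factor that specifies luminal cells, and SPDEF, an ETS factor of secretory epithelium, lay between the median and the upper quartile at 6.25 and 6.04. TBX3 and XBP1 were the only members of this group above the upper quartile. TBX3 is a T-box transcriptional repressor that acts in mammary bud development, and XBP1 is the transcription factor of the unfolded protein response.

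XBP1 was measured at 8.02, 7.97 and 8.01 in the control arrays 1, 2 and 2d and at 7.995, 7.98 and 8.10 in the silenced arrays. The groups overlapped, with silenced array 2d alone above the rest. The XBP1 difference was 0.03 (standard error 0.08, adjusted p = 0.972 from limma). TBX3 was measured at 7.43, 7.36 and 7.39 in control cells and at 7.53, 7.61 and 7.38 in silenced cells. Silenced arrays 1 and 2 lay above every control array and silenced array 2d fell among them, and the TBX3 difference of 0.11 (standard error 0.09) did not pass (adjusted p = 0.869 from limma). PGR was measured at 3.78, 3.82 and 3.87 in control cells and at 3.75, 3.69 and 3.63 in silenced cells. All silenced arrays were below all control arrays, by a gap of 0.03 at the nearest pair, and at this dim level the PGR difference of -0.14 (standard error 0.08) did not pass (adjusted p = 0.802 from limma). For ESR1, GATA3, FOXA1 and SPDEF the differences were -0.11, -0.07, 0.03 and -0.06, and the groups overlapped.

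Of 27 further oestrogen receptor targets on a list, 20 had a row and 0 of them passed in either direction in limma. Their median difference was -0.04, with 13 of 20 below 0 and 1 of 20 (MYB) past an unadjusted p under 0.05, where 7.39% of all transcript clusters passed. MYB, a transcription factor gene that oestrogen induces in luminal cells, was measured at 5.96, 6.16 and 6.12 in control cells and at 5.77, 5.66 and 5.75 in silenced cells. The MYB groups did not overlap, with a difference of -0.35 (standard error 0.09, adjusted p = 0.359 from limma). NRIP1, a nuclear receptor corepressor, and CCND1, cyclin D1, lay above the upper quartile at 8.84 and 8.16, with differences of 0.17 and -0.31 that did not pass (adjusted p = 0.723 for NRIP1 and 0.768 for CCND1 from limma). The mean level of the 20 targets lay between 6.35 and 6.38 in the control arrays and between 6.26 and 6.34 in the silenced arrays.

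The oestrogen-regulated and luminal secretory genes spanned every band. AGR3 and AGR2, of the disulfide isomerase family of the endoplasmic reticulum, lay below the lower quartile at 2.32 and 3.74. GREB1, a cofactor of the oestrogen receptor, and TFF1, a secreted trefoil peptide, lay between the lower quartile and the median at 4.38 and 4.97. MLPH, which links melanosomes and other vesicles to myosin, lay above the median at 6.01. The trefoil gene TFF3 lay just above the upper quartile at 6.54, and CA12, a membrane carbonic anhydrase that oestrogen induces in luminal cells, lay well above it at 7.70.

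CA12 was measured at 7.67, 7.75 and 7.86 in control cells and at 7.72, 7.63 and 7.58 in silenced cells. The groups overlapped, and the CA12 difference was -0.11 (standard error 0.09, adjusted p = 0.866 from limma). TFF3 was measured at 6.36, 6.49 and 6.69 in control cells and at 6.46, 6.66 and 6.59 in silenced cells. The control arrays alone spanned more than the TFF3 difference of 0.05 (standard error 0.11, adjusted p = 0.964 from limma). AGR3, AGR2, TFF1, MLPH and GREB1 had differences of -0.14, -0.04, -0.01, 0.05 and 0.08, none of them past the threshold in limma and all with overlapping groups.

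The ERBB receptors bind growth factors of the EGF and neuregulin families and signal as dimers. EGFR lay above the upper quartile at 8.85, while ERBB3, which has little kinase activity and pairs with other ERBB receptors, and ERBB4, the receptor of neuregulins in alveolar differentiation, lay between the lower quartile and the median at 4.83 and 4.63. EGFR was measured at 8.82, 8.93 and 9.05 in control cells and at 8.88, 8.63 and 8.78 in silenced cells. Silenced arrays 2 and 2d lay below every control array and silenced array 1 lay among them, so the groups overlapped. The EGFR difference was -0.17 (standard error 0.10, adjusted p = 0.810 from limma). ERBB3 was measured at 4.93, 4.84 and 4.80 in control cells and at 4.91, 4.85 and 4.65 in silenced cells. Silenced array 2d alone lay below the others, and the ERBB3 difference was -0.05 (standard error 0.10, adjusted p = 0.960 from limma). The ERBB4 difference of 0.20 rested on silenced array 2d at 5.12, since the other arrays of both groups lay between 4.46 and 4.61.

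On a list of 22 ERBB ligands and feedback regulators, 15 had a row and 0 passed in either direction, with a median difference of -0.08. The genes with the smallest p-values were ligands with lower values in silenced cells. EREG, which encodes the EGFR and ERBB4 ligand epiregulin, was measured at 10.77, 10.79 and 10.72 in control cells and at 10.35, 10.37 and 10.11 in silenced cells. The control arrays lay close together and above all silenced arrays, with an EREG difference of -0.48 (standard error 0.10, adjusted p = 0.206 from limma). EPGN, which encodes the EGFR ligand epigen, was measured at 8.03, 7.78 and 7.57 in control cells and at 7.36, 7.19 and 6.79 in silenced cells. The EPGN groups were also apart, with a difference of -0.68 (standard error 0.18, adjusted p = 0.382 from limma). Of the 219 genes with a row on all the lists outside the 39, EPGN alone met the study's criteria. Of all transcript clusters, 1.33% met them. NRG1, a ligand of ERBB3 and ERBB4, and HBEGF, an EGFR ligand, had differences of -0.09 and 0.06 (adjusted p = 0.972 for NRG1 and 0.934 for HBEGF from limma).

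**Figure D3:**
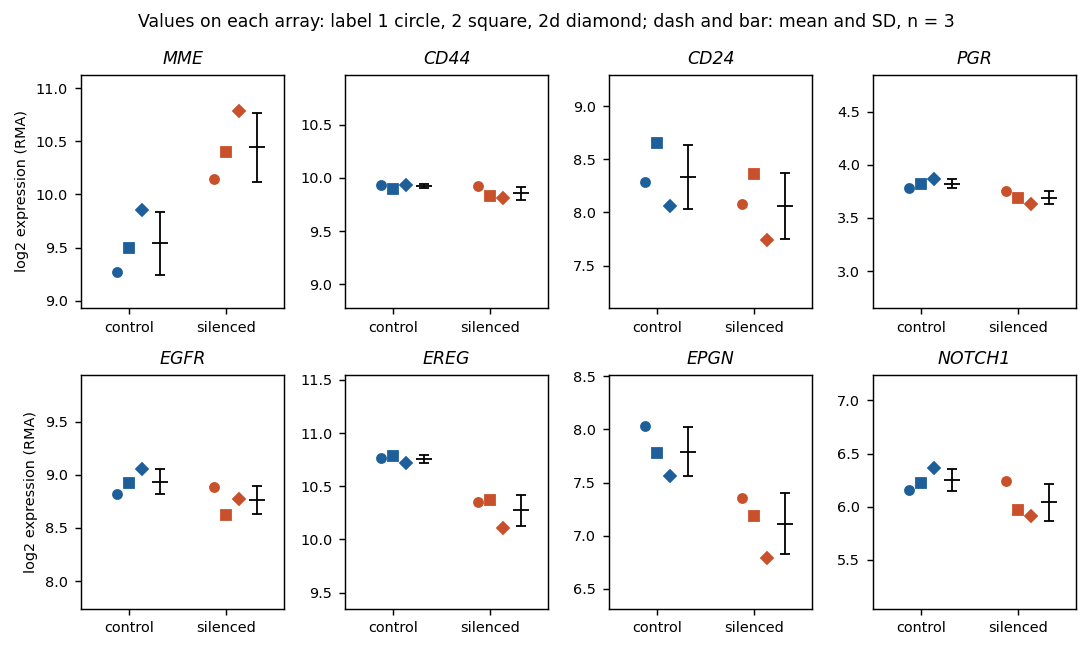
Values of 6 of the 39 genes and of the EGFR ligand genes EREG and EPGN on each array (log2 expression, RMA; circle, square and diamond are the labels 1, 2 and 2d), with mean and SD (n = 3). All panels span a similar height in log2 units, and the groups are apart for MME, PGR, EREG and EPGN.

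The luminal progenitor and alveolar genes all lay below the median of the arrays. KIT, the stem cell factor receptor, and PRLR, the prolactin receptor, lay below the lower quartile at 3.15 and 3.82, and ELF5, the ETS factor of alveolar cells, lay just above it at 4.29. ELF5 was measured at 4.28, 4.22 and 4.28 in control cells and at 4.43, 4.26 and 4.25 in silenced cells. The groups overlapped with silenced array 1 above the rest, and the ELF5 difference was 0.05 (standard error 0.08, adjusted p = 0.945 from limma). PRLR was measured at 3.66, 4.11 and 3.73 in control cells and at 3.62, 4.05 and 3.73 in silenced cells. Array 2 was the highest in both groups, and the PRLR difference was -0.03 (standard error 0.16, adjusted p = 0.988 from limma). The KIT difference was 0.01.

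Of 16 genes of prolactin signalling and milk, 12 had a row and 0 passed in either direction, with a median difference of 0.11. The casein gene CSN2 lay below the lower quartile at 2.82. LTF, the milk protein lactoferrin, was measured at 5.23, 4.92 and 5.01 in control cells and at 4.66, 4.66 and 4.71 in silenced cells. The LTF groups were apart with a difference of -0.38 (standard error 0.10, adjusted p = 0.410 from limma). STAT5B, a transcription factor downstream of the prolactin receptor, and PRL, prolactin itself at a dim level of 3.37, had differences of -0.28 and 0.32 (adjusted p = 0.5004 for STAT5B and 0.602 for PRL from limma).

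The stem cell surface proteins had MME, CD44 and CD24 in the highest band, and MME was the gene that met the study's criteria. MME encodes neprilysin, also known as CD10, a zinc metallopeptidase of the cell surface that cleaves small peptides and marks myoepithelial cells of the normal duct. MME was measured at 9.27, 9.49 and 9.86 in the control arrays 1, 2 and 2d. In the silenced arrays 1, 2 and 2d it was measured at 10.14, 10.40 and 10.79. Every silenced array lay above every control array, with a gap of 0.29 between the highest control and the lowest silenced array, while the arrays of a group spanned 0.59 in control and 0.64 in silenced cells. The MME difference was 0.90 (standard error 0.20, 95% interval 0.43 to 1.38), with an adjusted p = 0.281 from limma. An exact two-sided permutation test gave p = 0.1, the smallest that 3 arrays against 3 allow. Within the arrays of the same label, MME was higher by 0.88, 0.91 and 0.93 in silenced cells, a comparison chosen after its values were seen. Among the 14884 genes with a symbol, MME had the 32nd largest positive difference and was 148th by p. The arrays read RNA of whole cultures, so a larger share of MME-expressing cells and more MME transcript per cell cannot be told apart.

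MME is also a marker of myoepithelial cells, so a list of 24 basal and myoepithelial genes was set beside it, of which 7 had a row. None of the 7 passed in either direction in limma, with a median difference of 0.06 and 6 of 7 above 0. Of all transcript clusters, 26271 of 53617 lay above 0. The mean level of the basal and myoepithelial genes was 5.93 to 6.09 in the control arrays and 6.12 to 6.18 in the silenced arrays. The means of the oestrogen receptor targets were also apart, with lower values in silenced cells. MYLK, the myosin light chain kinase of contractile cells, was measured at 5.74, 5.79 and 5.78 in control cells and at 6.01, 6.14 and 6.21 in silenced cells. The MYLK groups were apart, with a difference of 0.35 (standard error 0.08, adjusted p = 0.324 from limma). Basal keratin genes KRT5 and KRT14 lay between the lower quartile and the median at 4.69 and 4.64, with differences of 0.23 and 0.27 and overlapping groups (adjusted p = 0.813 for KRT5 and 0.798 for KRT14 from limma). The remaining genes of the list lay nearer to no difference, with -0.04 for DST, 0.02 for TAGLN, 0.04 for OXTR and 0.06 for TRIM29, and their groups overlapped. The part of these genes in the MME result was not tested.

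CD44, the hyaluronan receptor that is used to sort stem-like breast cancer cells, was measured at 9.93, 9.90 and 9.94 in control cells and at 9.93, 9.83 and 9.81 in silenced cells. The values of all 6 arrays lay within a narrow range and the groups overlapped, with a CD44 difference of -0.07 (standard error 0.08, 95% interval -0.25 to 0.11, adjusted p = 0.914 from limma). CD24, a small glycosylated surface protein that is low in sorted stem-like cells, was measured at 8.29, 8.65 and 8.06 in control cells and at 8.08, 8.36 and 7.74 in silenced cells. The CD24 groups overlapped, array 2 was the highest in both, and the difference was -0.27 (standard error 0.20, 95% interval -0.74 to 0.20, adjusted p = 0.853 from limma). CD24 has near-identical pseudogene copies, so its signal may hold that of other loci. The pentaspan membrane protein gene PROM1 (CD133) lay at 4.70 and the Wnt-amplifying receptor gene LGR5 at 4.26, both between the lower quartile and the median. LGR6, a relative of LGR5, lay at 5.31 and NGFR, the low-affinity neurotrophin receptor that is found on basal cells, at 5.50, both above the median. Their differences were -0.01 for PROM1, 0.09 for LGR5, 0.02 for LGR6 and 0.00 for NGFR, and none passed.

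The start-site sequences of MME and CD44, 2 genes in the highest band, are shown beside those of AGR3 and NANOG, 2 genes in the lowest band, because promoters of broadly used genes often lie in CpG islands while those of tissue-restricted genes often do not. Each is the 250 bases before the most upstream start site that RefSeq lists (GRCh38.p14), written 5' to 3' on the strand of the gene, with every CG dinucleotide in capitals. The windows are chr3:155079422-155079671 on the plus strand for MME, chr11:35138921-35139170 on the plus strand for CD44, chr7:16881984-16882233 on the minus strand for AGR3 and chr12:7789152-7789401 on the plus strand for NANOG.
MME: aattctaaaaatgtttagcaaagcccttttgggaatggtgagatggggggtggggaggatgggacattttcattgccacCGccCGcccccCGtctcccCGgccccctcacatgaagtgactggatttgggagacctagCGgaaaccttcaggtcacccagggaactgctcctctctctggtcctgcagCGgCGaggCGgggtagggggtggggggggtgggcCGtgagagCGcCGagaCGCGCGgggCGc
CD44: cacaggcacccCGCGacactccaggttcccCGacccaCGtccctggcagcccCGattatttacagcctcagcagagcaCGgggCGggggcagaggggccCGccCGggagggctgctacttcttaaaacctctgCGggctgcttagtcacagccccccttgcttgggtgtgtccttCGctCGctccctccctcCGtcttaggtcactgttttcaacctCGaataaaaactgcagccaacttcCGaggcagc
AGR3: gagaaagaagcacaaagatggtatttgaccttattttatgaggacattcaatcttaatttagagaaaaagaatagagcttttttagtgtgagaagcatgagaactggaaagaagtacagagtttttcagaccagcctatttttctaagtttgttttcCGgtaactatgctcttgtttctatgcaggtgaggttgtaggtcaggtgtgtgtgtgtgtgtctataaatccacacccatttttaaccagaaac
NANOG: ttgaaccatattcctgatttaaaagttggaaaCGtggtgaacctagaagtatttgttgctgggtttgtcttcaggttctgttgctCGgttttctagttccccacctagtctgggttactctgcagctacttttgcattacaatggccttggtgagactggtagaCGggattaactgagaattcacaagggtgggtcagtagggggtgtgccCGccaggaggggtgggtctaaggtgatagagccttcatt
The letters CG read the same on both strands. They were found 15 times in the MME window, 15 times in the CD44 window, 1 time in the AGR3 window and 4 times in the NANOG window. Over 35116 promoters of that length, 93.9% held at least 1 CG, with a median of 11 and quartiles of 3 and 23.

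Such a window was matched for 29 of the 39 genes, with 60 start sites. For each gene the start site with the most CG dinucleotides was counted. The median count was 6 for the 7 genes below the lower quartile of expression, 20 for the 7 between the lower quartile and the median, 26.5 for the 8 between the median and the upper quartile, and 25 for the 7 above it. All genes with a symbol and a window showed medians of 5, 11, 21 and 23 in the same bands. Below the lower quartile, AGR3, AGR2, NANOG, PRLR and PGR held 1, 3, 4, 6 and 12 CG dinucleotides, whereas KIT and LIN28B held 34 and 33. Between the lower quartile and the median, ELF5 held 2, ESR1 11, ERBB4 14, SOX2 20, BCL11A 21, and FOXA1 and PROM1 26 each. The highest band ran from 13 for CA12 to 31 for XBP1, with 25 for both MME and EGFR. MYC, TBX3 and TFF3 also lay in that band but had no matched window. The counts describe the sequence only and draw on no measurement of methylation.

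**Figure D4:**
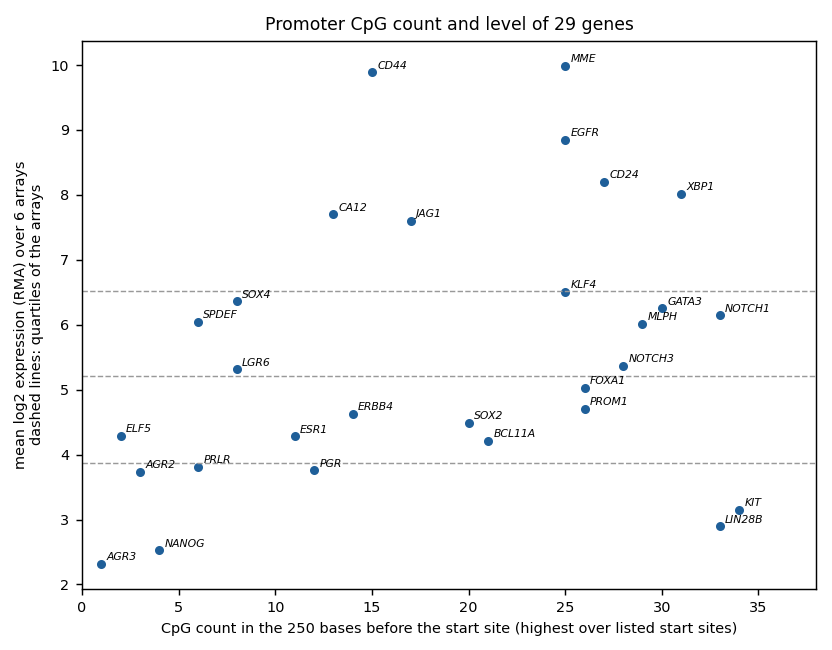
CpG count in the 250 bases before the start site (x axis, highest over the start sites listed) against the mean log2 expression over 6 arrays (y axis) for 29 of the 39 genes; dashed lines mark the quartiles of the arrays. No gene drawn above the upper quartile has fewer than 13 CG dinucleotides, and KIT and LIN28B are dim with 34 and 33. MYC, TBX3 and TFF3, also above the upper quartile, had no matched window and are not drawn.

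Among the stem cell and developmental regulators, MYC, the growth-promoting transcription factor, lay above the upper quartile at 7.31, and KLF4, a Kruppel-like pluripotency factor, lay just under it at 6.51. SOX4, SOX9 and SOX10, which act in mammary progenitors and in neural crest, lay between the median and the upper quartile at 6.36, 6.18 and 6.26. SOX2 and BCL11A, regulators of pluripotency and of triple-negative breast cancer growth, lay between the lower quartile and the median at 4.49 and 4.22. The pluripotency gene NANOG and LIN28B, which blocks let-7 maturation, lay below the lower quartile at 2.53 and 2.90.

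MYC was measured at 7.28, 7.35 and 7.38 in control cells and at 7.43, 7.12 and 7.30 in silenced cells. The silenced arrays held both the highest and the lowest value, and the MYC difference was -0.06 (standard error 0.10, adjusted p = 0.952 from limma). KLF4 was measured at 6.68, 6.51 and 6.42 in control cells and at 6.41, 6.49 and 6.56 in silenced cells. The groups overlapped, and the KLF4 difference was -0.05 (standard error 0.10, adjusted p = 0.956 from limma). NANOG, whose pseudogenes could share its signal, had a difference of 0.25 (95% interval -0.14 to 0.63, adjusted p = 0.834 from limma) at its dim level. SOX2, BCL11A, SOX4, SOX9, SOX10 and LIN28B had differences of 0.12, 0.12, -0.08, -0.11, -0.05 and -0.05, and their groups overlapped. Silenced array 2d of SOX9 stood apart at 5.78, while the other 5 arrays lay between 6.20 and 6.33.

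Of 22 further genes of pluripotency and of the LIN28 axis, 17 had a row and 0 passed in either direction, with a median difference of -0.03. HMGA2, a chromatin protein of fetal and tumour cells, was measured at 6.69, 6.81 and 6.61 in control cells and at 6.34, 6.34 and 6.39 in silenced cells, and IGF2BP2, an mRNA-binding protein, was measured at 7.88, 7.77 and 7.80 against 7.56, 7.28 and 7.58. All silenced arrays lay below all control arrays for both genes, with a difference of -0.35 (adjusted p = 0.335 from limma) for HMGA2 and of -0.34 (adjusted p = 0.496 from limma) for IGF2BP2. The related chromatin gene HMGA1 was also lower on every silenced array, by 0.31 in the mean (control 8.92, silenced 8.61, adjusted p = 0.556 from limma). IGF2BP1 and IGF2BP3, relatives of IGF2BP2, had differences of 0.18 and -0.03, and POU5F1 and LIN28A had differences of -0.03 and 0.10, none of which passed.

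In the Notch pathway, JAG1, a membrane-bound Notch ligand, lay above the upper quartile at 7.60, and the receptor genes NOTCH1 and NOTCH3 lay between the median and the upper quartile at 6.15 and 5.37. JAG1 was measured at 7.47, 7.67 and 7.74 in control cells and at 7.52, 7.43 and 7.80 in silenced cells. The groups overlapped, with a JAG1 difference of -0.04 (standard error 0.13, adjusted p = 0.976 from limma). NOTCH1 was measured at 6.16, 6.22 and 6.37 in control cells and at 6.24, 5.97 and 5.91 in silenced cells. Silenced arrays 2 and 2d lay below every control array and silenced array 1 did not, and the NOTCH1 difference was -0.21 (standard error 0.11, 95% interval -0.48 to 0.06, adjusted p = 0.780 from limma). The NOTCH3 difference was 0.04. Of 39 further Notch pathway genes, 37 had a row and 0 passed in either direction, with a median difference of -0.01. NRARP, a target and feedback inhibitor of Notch, was measured at 7.16, 6.90 and 6.99 in control cells and at 6.51, 6.82 and 6.70 in silenced cells. NRARP had groups apart and a difference of -0.35, and NCSTN, the nicastrin subunit of the gamma-secretase that cleaves Notch, had groups apart and a difference of -0.24, neither of which passed (adjusted p = 0.541 for NRARP and 0.638 for NCSTN from limma).

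The lineage of the line was read from lists of structural markers. Of 21 mesenchymal genes, 12 had a row and 8 of these lay above the upper quartile, where 36.1% of all genes with a symbol lay. The brightest were the intermediate filament gene VIM at 12.58, fibronectin FN1 at 11.25, and the transcription factors SNAI2 and ZEB1 at 10.42 and 8.63. Another 3 lay between the median and the upper quartile (THY1 at 6.38, PRRX1 at 6.17 and SNAI1 at 5.97), and TWIST1 lay just under the median at 5.17. Of 24 epithelial and luminal structural genes, 15 had a row, 3 of them above the upper quartile (KRT18 at 8.43, KRT7 at 7.80 and CLDN3 at 6.70). Another 5 lay between the median and the upper quartile, among them KRT8 at 6.18 and KRT19 at 5.87. The other 7 lay between the lower quartile and the median. KRT18 had 2 rows and VIM had 3, only the brightest of each was read, and the locus behind it was not checked. The dimmest genes of this epithelial list were EPCAM, an epithelial adhesion molecule, at 4.18, and ESRP1, an epithelial splicing factor, at 3.88. The basal list held 1 gene of 7 above the upper quartile (DST, a linker of hemidesmosomes, at 11.07). No test was made of the differences between lists.

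None of the 15 epithelial and luminal structural genes and none of the 12 mesenchymal genes passed in either direction, with median differences of -0.02 and -0.02. KRT7, a keratin of luminal epithelium, was measured at 7.56, 7.68 and 7.73 in control cells and at 8.07, 7.86 and 7.88 in silenced cells, with groups apart and a difference of 0.28 (adjusted p = 0.561 from limma). THY1, a surface protein of fibroblasts, was measured at 6.30, 6.23 and 6.22 in control cells and at 6.57, 6.57 and 6.395 in silenced cells, with groups apart and a difference of 0.26 (adjusted p = 0.548 from limma). Of the 15 epithelial and luminal genes, 6 lay above 0 and 9 below. CLDN4 of that list had a difference of -0.25 with overlapping groups (adjusted p = 0.719 from limma). Groups were apart for 3 of the 12 mesenchymal genes, against 12.7% of all transcript clusters. Of these, THY1 was higher in silenced cells, while SNAI2 (-0.19) and ZEB2 (-0.14) were lower. The mean level of the mesenchymal list was 7.93 to 7.98 in both groups. Of the markers of other cells, 5 of 12 leukocyte genes and 8 of 10 endothelial genes had a row and 0 passed. The median difference was -0.08 for the leukocyte list, with 3 of 5 genes below 0, and -0.05 for the endothelial list, with 5 of 8 below 0. The mean level of the leukocyte list was 5.09 to 5.29 in control and 5.11 to 5.18 in silenced arrays, and that of the endothelial list was 5.12 to 5.24 and 5.22 to 5.26. PECAM1, an endothelial adhesion molecule at 5.26, was higher on every silenced array with a difference of 0.46, and CD68, a lysosomal protein of macrophages, was lower on every one by 0.30 in the mean (control 7.40, silenced 7.11), neither of which passed (adjusted p = 0.509 for PECAM1 and 0.456 for CD68 from limma).

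**Figure D5:**
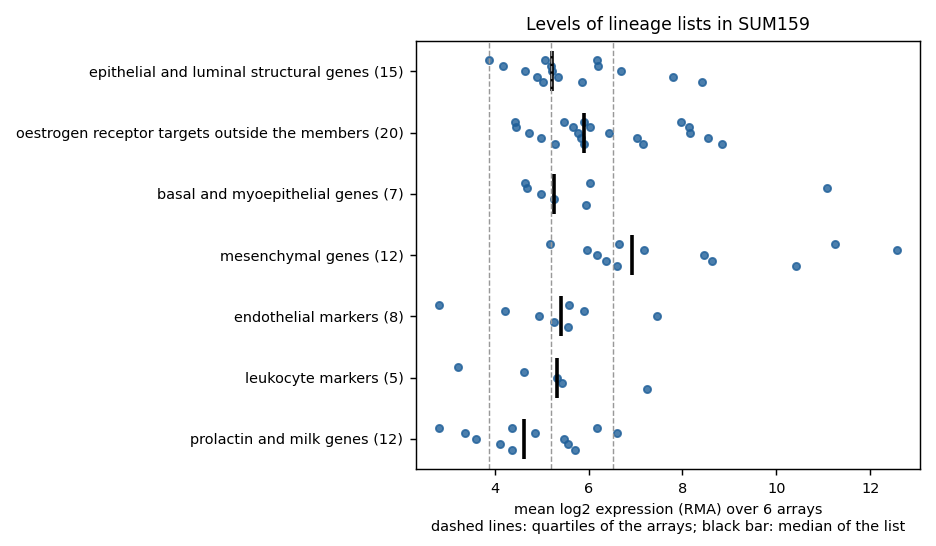
Mean log2 expression over 6 arrays of the genes of 7 lineage lists (points, with the number of measured genes beside each name); the black bar is the median of a list and dashed lines mark the quartiles of the arrays. The mesenchymal genes reach from TWIST1 at 5.17 to VIM at 12.58, and the prolactin and milk genes have the lowest median.

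Over all the lists together, 219 of 323 listed genes had a row, 0 passed at an adjusted p under 0.05 in limma, and 18 had an unadjusted p under 0.05, of which 5 were higher and 13 lower in silenced cells. Of all transcript clusters, 7.39% had such a p, and among the 14884 genes with a symbol the split was 463 higher and 537 lower. The groups did not overlap for 33 of the 219, or 15.1%, against 12.7% of all transcript clusters and 14.2% of genes with a symbol. Both counts lay near the background. The median difference of these genes was -0.01.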

How the data were processed

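The authors isolated total RNA, amplified it, labelled it with biotin and hybridized it to 6 arrays, 1 per sample. As deposited, each value is on the log2 scale after RMA, which the authors ran in Partek 6.6 to correct the background, to give the arrays a common distribution and to summarise probes by median polish. No source used here names the base of the log, which was taken as 2 from the range of the values. The common distribution removes differences in total RNA, so changes are relative to other transcripts. Of 53617 transcript clusters, 16098 had 1 symbol in the platform annotation (14884 genes) and 37519 are unnamed here. The brightest row by the mean of the 6 arrays stood for a gene.

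Spinophilin-silenced and control arrays were compared in R 4.3.3 by limma 3.58.1 (lmFit, eBayes) with silencing as the only term, with Benjamini-Hochberg adjustment over all transcript clusters, an adjusted p threshold of 0.05 and 95% intervals. The study's analysis of variance had a second factor that its methods do not name, and the unmoderated test was an alternative. The fit was tested on simulated data. The number of arrays limits the precision. The genes and lists were chosen with earlier results of these data known. Every gene with a row is named. Values per array are given for genes past an adjusted or an unadjusted p of 0.05, up to 8 further genes with non-overlapping groups, and the 2 brightest of each role group, with CD24 added after its values were seen. From the other lists the genes named were up to 3 with the smallest p, and others were added as background after their values were seen. Promoters came from RefSeq (GRCh38.p14) by symbol. Olfactory receptor genes, planned as a reference for genes not used in this tissue, were left out because only 1 had a symbol here.

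The alternatives were a block for the replicate label, averaging arrays 2 and 2d or giving them a random block, leaving out dim transcript clusters, centring each array, a second quantile normalization, variance trend and robustness, array weights, the mean over the rows of a symbol, and leaving out each array. Leaving out MME and comparing arrays of the same label were added after seeing the data.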

Additional observations from a re-analysis of the deposited data

How the results depend on the processing

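No gene of the 39 passed an adjusted p under 0.05 in any of 17 alternatives, which were limma fits apart from the unmoderated test. MME met the study's criteria in all 17, with a difference of 0.73 to 1.06. The MME adjusted p ranged from 0.0747 with the replicate label as a block to 0.616 from limma. Over all transcript clusters, the 110 calls became 40 with the replicate block, 12 with arrays 2 and 2d averaged, 223 with these arrays as a random block (estimated correlation -0.24), 0 in the unmoderated test, and 15 to 48 on leaving out 1 array (15, 17 and 34 without control 1, 2 and 2d, and 24, 21 and 48 without silenced 1, 2 and 2d); the cause was not tested, though averaging and leaving out leave fewer samples. Deviations of same-label arrays from their group means correlated at 0.01, 1.57e-05 and 0.09, and those of arrays with unlike labels at -0.07 to 0.06. Such small correlations over all transcript clusters cannot show whether the labels mark pairs of samples. The filter at the lower quartile left 32 of the 39 genes, 29 of them within 1.5-fold. The filter at the median left 21 of the 39 genes, 19 of them within 1.5-fold. Non-overlapping groups were found for 12 genes with arrays 2 and 2d averaged, 1 with either filter, and 4 to 7 on leaving out an array. Groups of fewer values, as after averaging or leaving out, overlap less often by construction. The share over all transcript clusters was not counted at these settings, so these counts cannot be read as a result about the genes. Without MME, 0 genes met the study's criteria. The median difference was -0.04 to 0.008 on leaving out an array, and above 0 only without silenced array 2.

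Of 249 pairs of a named gene and an alternative, 238 kept their sign and side of the threshold. The other 11 turned sign without passing, all on leaving out an array, where the differences ranged from -0.0096 to 0.051 for XBP1, -0.0265 to 0.14 for TFF3, -0.101 to 0.0282 for ERBB3, -0.00537 to 0.0827 for ELF5, -0.153 to 0.11 for PRLR (with 0.0631 and 0.00638 also above 0), -0.13 to 0.0253 for MYC, -0.107 to 0.0187 for KLF4 and -0.148 to 0.0366 for JAG1 (with 0.016 also above 0).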

Other observations

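Further lists of stem cell pathways were read from the same fit, and 0 of their genes passed an adjusted p under 0.05 from limma in either direction. Of 35 genes of Wnt receptors and the R-spondin axis, through which LGR5 and LGR6 act, 26 had a row and the median difference was 0.001. FZD1, a Wnt receptor, was measured at 5.26, 5.17 and 5.29 in control cells and at 4.77, 5.20 and 4.86 in silenced cells, a difference of -0.30 (adjusted p = 0.669 from limma), and silenced array 2 lay among the control arrays. Of 21 genes of the BMP and ID pathway, 14 had a row, with a median difference of -0.02. TCF4, a helix-loop-helix partner of ID proteins, was measured at 6.62, 6.76 and 6.84 in control cells and at 6.26, 6.10 and 6.73 in silenced cells, a difference of -0.38 with overlapping groups (adjusted p = 0.701 from limma).

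All 15 other SOX genes had a row, 12 of them within the bands around the median, with a median difference of 0.05. SOX5 lay at 4.55, 4.57 and 4.58 in control cells and at 4.26, 4.39 and 4.43 in silenced cells, with groups apart and a difference of -0.20 (adjusted p = 0.642 from limma), while SOX17 had groups apart the other way, with a difference of 0.19 (adjusted p = 0.722 from limma). Of 19 Polycomb genes, which encode repressors of developmental genes, 15 had a row and 10 of these lay above the upper quartile, with a median difference of -0.02. ALDH2, the 1 gene with a row among 16 other aldehyde dehydrogenases, lay at 5.40 with a difference of 0.04.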
